A study of Mus musculus with 9 samples.

Results

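The E2F transcription factors and the DREAM regulators B-Myb and FoxM1 were followed across 3 strains of HC11 mouse mammary epithelial cells. The set holds 10 genes: the 8 E2F factors E2f1 to E2f8, Mybl2, which encodes B-Myb, and Foxm1. They were fixed by name, and a probeset was taken only if the array annotation gave it 1 of these symbols and no other. This left 11 probesets, of which E2f3 had 2, and for each gene the probeset with the highest mean over the 9 arrays was used. The 10 genes stood among 19937 genes with a probeset of their own. All 10 had a mean log2 expression of at least 4, the minimum of the study's filters, which 13157 of the 19937 genes reached.

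E2F factors decide when the genes for DNA replication are transcribed. The canonical members bind DNA together with a DP partner. E2f1, E2f2 and E2f3 are classed as activators, which pocket proteins of the retinoblastoma family hold inactive in resting cells. E2f4, E2f5 and E2f6 are classed as canonical repressors, and E2f7 and E2f8 as atypical repressors that bind DNA without a DP partner. In resting cells E2F4 or E2F5, a DP partner, a pocket protein and the MuvB core form the DREAM complex, which silences cell cycle genes. When cells re-enter the cycle, MuvB exchanges these partners for B-Myb and later FoxM1, and these complexes activate the genes of G2 and mitosis.

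The arrays addressed which transcripts depend on the SAP domain of Mkl1 and which on its contact with SRF. Mkl1 is a coactivator of the transcription factor SRF, and its SAP domain is a putative DNA-binding motif. HC11-ΔSAP cells carried Mkl1 without the SAP domain, HC11-mutB1 cells carried Mkl1 with alanine substitutions in the B1 region that contacts SRF, and HC11-FL cells, the control of both, carried full length Mkl1. All 3 strains overexpressed their construct as a fusion with red fluorescent protein and had been starved for 48 h in medium with 0.03% FCS and no EGF. HC11 is a line of undifferentiated epithelial cells from the mammary gland of pregnant BALB/c mice that carries mutated p53. Each construct was represented by 1 strain, sorted for fluorescence after stable transfection, and no strain with an empty vector was arrayed. With 3 arrays per strain, the errors given here therefore cover the spread between arrays of 1 strain and not the spread between independently made strains.

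Array medians lay between 4.53 and 4.60, and the correlation across all probesets was 0.994 to 0.995 within strains and 0.985 to 0.989 between strains. The Mkl1 probeset averaged 9.47 in HC11-ΔSAP, 9.83 in HC11-mutB1 and 9.95 in HC11-FL cells, a signal in which construct and endogenous transcript cannot be told apart. HC11-ΔSAP cells had less of this signal than HC11-FL cells (log2 fold change -0.48, limma adjusted p = 0.00177). Whether the probeset covers the bases deleted from that construct was not tested. At the protein level, the study reports sorting for similar amounts of the fusions and approximately equal amounts on an immunoblot. All 6 markers of mammary epithelium (Krt8, Krt18, Krt5, Krt14, Epcam and Cdh1) had a mean log2 level of at least 4 in every strain, with means of 7.59 to 11.5, while 0 of 4 endothelial markers reached it. Of the fibroblast markers 4 of 5 did, all but Lum. Of the blood cell markers 2 of 4 did, with Ptprc and Adgre1 under it. Summed on the linear scale, the epithelial markers reached 6496 to 6576 in HC11-ΔSAP, 8752 to 8969 in HC11-mutB1 and 7223 to 7452 in HC11-FL cells. In HC11-ΔSAP against HC11-FL cells 4 of these 6 markers were lower, with log2 fold changes down to -1.90 (Krt5), and 2 were higher (Epcam and Cdh1). The blood cell markers reached 325 to 334 in HC11-ΔSAP, 201 to 214 in HC11-mutB1 and 251 to 260 in HC11-FL cells, and the fibroblast markers 295 to 309 in HC11-ΔSAP, 277 to 302 in HC11-mutB1 and 253 to 271 in HC11-FL cells. Of the blood cell markers, Cd68 averaged 8.14 in HC11-ΔSAP, 7.35 in HC11-mutB1 and 7.69 in HC11-FL cells. Cd3e, the other that reached the minimum, averaged 4.70, 4.66 and 4.75 in the same order. Among the fibroblast markers Dcn was higher (log2 fold change 1.81) and Pdgfra lower (-0.42) in HC11-ΔSAP against HC11-FL cells. Their part in the results was not tested.

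A gene is called changed here when its limma p-value, adjusted over all probesets by Benjamini and Hochberg, was at most 0.01 at a mean log2 level of at least 4, at any fold. Genes past all 3 filters of the study also differed by at least 2-fold. In HC11-ΔSAP against HC11-FL cells 4 of the 10 regulators were lower (E2f7, E2f8, Mybl2 and Foxm1), where 12.0% of all 13157 genes were, and 1 was higher (E2f1), where 16.0% were. Only E2f8 passed all 3 filters there, which 2.07% of genes did downwards and 2.06% upwards. In HC11-mutB1 against HC11-FL cells 0 of 10 were lower, where 10.6% of genes were, and 4 were higher (E2f1, E2f5, E2f6 and Foxm1), where 15.7% were. None of the 10 passed all 3 filters there, which 1.67% of genes did downwards and 2.21% upwards.

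Set directly against HC11-mutB1 cells, HC11-ΔSAP cells had no regulator called higher. In HC11-ΔSAP against HC11-mutB1 cells 5 of the 10 regulators were lower (E2f6, E2f7, E2f8, Mybl2 and Foxm1), where 10.6% of all genes were, and 0 were higher, where 9.86% were. E2f8, Mybl2 and Foxm1 passed all 3 filters downwards, as did 2.28% of genes, against 1.61% upwards. The comparisons with HC11-FL share their 3 control arrays and are given side by side. Each array measured the RNA of a whole culture, so fewer cells in cycle and less RNA of these genes per cell cannot be told apart. The plot of log2 levels by array shows all 10 genes on panels of equal height.

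**Figure D1:**
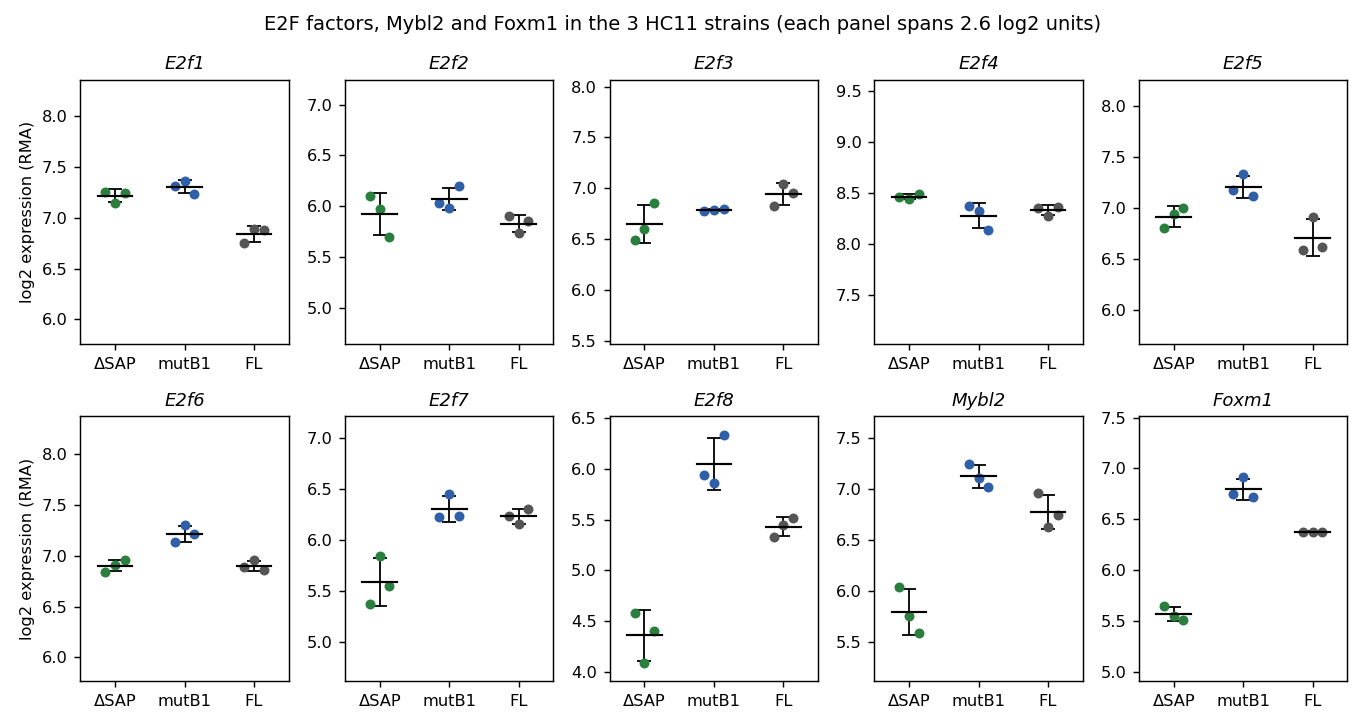
Log2 expression (RMA) of the 10 regulators on each array of HC11-ΔSAP (green), HC11-mutB1 (blue) and HC11-FL (grey) cells, with the mean and SD of 3 arrays; every panel spans the same number of log2 units. E2f8, Mybl2 and Foxm1 lie lowest on all HC11-ΔSAP arrays and highest on all HC11-mutB1 arrays, whereas E2f1 lies lowest on the HC11-FL arrays.

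E2f1 was the activator that differed, and it was higher in both mutant strains. It encodes the founding member of the family, which drives entry into S phase and can also trigger apoptosis, and lies on chromosome 2 (154559400 to 154569892, GRCm38.p6). Its log2 level was 7.26, 7.14 and 7.25 on the HC11-ΔSAP arrays, 7.31, 7.36 and 7.23 on the HC11-mutB1 arrays and 6.75, 6.89 and 6.87 on the HC11-FL arrays. All arrays of both mutant strains lay above all HC11-FL arrays, and the mutant strains overlapped each other. The difference from HC11-FL was 0.38 on the log2 scale in HC11-ΔSAP cells (SE 0.06, 1.30-fold, limma adjusted p = 0.00253). In HC11-mutB1 cells it was 0.47 (SE 0.06, 1.38-fold, adjusted p = 0.000916). HC11-ΔSAP minus HC11-mutB1 was -0.09, with a 95% interval of -0.23 to 0.05 (adjusted p = 0.439). The call in HC11-ΔSAP cells was lost without replicate 1 or replicate 3 of that strain, with an adjusted p of up to 0.0126.

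E2f2 and E2f3, the other activators, changed in no comparison. E2f2 lies on chromosome 4 and read 6.10, 5.97 and 5.69 in HC11-ΔSAP, 6.03, 5.98 and 6.20 in HC11-mutB1 and 5.90, 5.73 and 5.85 in HC11-FL cells. The HC11-mutB1 arrays lay above the HC11-FL arrays and the HC11-ΔSAP arrays on either side of the HC11-FL arrays. Its log2 difference from HC11-FL was 0.09 in HC11-ΔSAP cells (95% interval -0.16 to 0.35, adjusted p = 0.676). In HC11-mutB1 cells it was 0.24 (-0.01 to 0.49, adjusted p = 0.198).

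E2f3, on chromosome 13, read 6.49, 6.60 and 6.86 in HC11-ΔSAP, 6.78, 6.79 and 6.79 in HC11-mutB1 and 6.83, 7.05 and 6.96 in HC11-FL cells. The HC11-FL values stood highest, with an overlap with the HC11-ΔSAP values. The difference from HC11-FL was -0.30 in HC11-ΔSAP cells (SE 0.10, adjusted p = 0.0745) and passed the threshold only without HC11-ΔSAP replicate 3 (-0.40, adjusted p = 0.00972). It was -0.16 in HC11-mutB1 cells (adjusted p = 0.349). The second E2f3 probeset gave -0.17 in HC11-ΔSAP cells (adjusted p = 0.181) and -0.04 in HC11-mutB1 cells (adjusted p = 0.778).

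Among the canonical repressors, E2f4 changed in no comparison, while E2f5 and E2f6 rose in HC11-mutB1 relative to HC11-FL cells. E2f4 encodes the E2F of the DREAM complex in many resting cells and lies on chromosome 8. It read 8.46, 8.44 and 8.49 in HC11-ΔSAP, 8.37, 8.32 and 8.14 in HC11-mutB1 and 8.35, 8.28 and 8.37 in HC11-FL cells. The HC11-ΔSAP arrays lay above all others by a small margin. The difference was 0.13 in HC11-ΔSAP against HC11-FL cells (95% interval -0.02 to 0.28, adjusted p = 0.242). It was 0.19 in HC11-ΔSAP against HC11-mutB1 cells (0.04 to 0.33, adjusted p = 0.105).

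E2f5, on chromosome 3, encodes the second E2F found in DREAM. It read 6.80, 6.94 and 7.0 in HC11-ΔSAP, 7.18, 7.33 and 7.12 in HC11-mutB1 and 6.59, 6.92 and 6.62 in HC11-FL cells. HC11-mutB1 arrays stood above all others, and the HC11-ΔSAP and HC11-FL arrays overlapped. The difference in HC11-mutB1 against HC11-FL cells was 0.50 (SE 0.10, 1.42-fold) with an adjusted p of 0.00978, close to the threshold. Leaving out any array other than HC11-FL replicate 2 ended that call, with an adjusted p of up to 0.0398. HC11-ΔSAP cells differed from HC11-FL by 0.21 (adjusted p = 0.246) and from HC11-mutB1 by -0.30 (adjusted p = 0.105).

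E2f6, on chromosome 12, encodes a repressor that does not bind pocket proteins and works with Polycomb proteins. It read 6.84, 6.91 and 6.96 in HC11-ΔSAP, 7.14, 7.30 and 7.21 in HC11-mutB1 and 6.89, 6.96 and 6.86 in HC11-FL cells. The HC11-mutB1 arrays lay above the rest, and the other strains shared 1 range and 1 identical value. HC11-mutB1 exceeded HC11-FL by 0.31 (SE 0.06, 1.24-fold, adjusted p = 0.00551). HC11-ΔSAP fell below HC11-mutB1 by 0.31 (adjusted p = 0.00684), and its difference from HC11-FL was 0.00 (95% interval -0.13 to 0.13, adjusted p = 0.999). The call against HC11-FL was lost without any 1 HC11-FL array, HC11-mutB1 replicate 2 or 3, or HC11-ΔSAP replicate 2 (adjusted p up to 0.0246), and the call between the mutants without any array other than HC11-mutB1 replicate 1 (up to 0.0263).

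The atypical repressors E2f7 and E2f8 both stood lower in HC11-ΔSAP cells than in either other strain. Their proteins repress E2F target genes from S phase on, and both genes are themselves E2F targets. E2f7, on chromosome 10 (110745439 to 110787384), read 5.38, 5.84 and 5.55 in HC11-ΔSAP, 6.23, 6.46 and 6.23 in HC11-mutB1 and 6.24, 6.16 and 6.31 in HC11-FL cells. Every HC11-ΔSAP array lay below every other array, and the HC11-mutB1 and HC11-FL arrays overlapped. The log2 fold change was -0.65 in HC11-ΔSAP against HC11-FL (SE 0.12, 1.57-fold, adjusted p = 0.00586). It was -0.72 in HC11-ΔSAP against HC11-mutB1 (SE 0.12, 1.64-fold, adjusted p = 0.00463). HC11-mutB1 differed from HC11-FL by 0.07 (95% interval -0.21 to 0.35, adjusted p = 0.775). Of the 9 fits with 1 array left out, the call against HC11-FL held in those without HC11-mutB1 replicate 2 and without HC11-ΔSAP replicate 2 (adjusted p up to 0.0261 in the others). The call between the mutants held only without HC11-FL replicate 2 or 3 or HC11-ΔSAP replicate 2 (up to 0.0213 in the others).

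E2f8 had the largest fold of the 10 regulators. It lies on chromosome 7 (48866429 to 48882073) and acts with E2f7 in restraining E2F activity. It read 4.59, 4.09 and 4.40 in HC11-ΔSAP, 5.94, 5.86 and 6.33 in HC11-mutB1 and 5.33, 5.45 and 5.52 in HC11-FL cells. The strains did not overlap, with HC11-ΔSAP lowest, near the expression minimum, and HC11-mutB1 highest. In HC11-ΔSAP against HC11-FL cells the log2 fold change was -1.07 (SE 0.15, 2.1-fold, adjusted p = 0.00157), at percentile 1.77 of the 13157 genes ordered by log2 fold change. In HC11-ΔSAP against HC11-mutB1 cells it was -1.69 (SE 0.15, 3.22-fold, adjusted p = 0.000177), at percentile 0.707. HC11-mutB1 exceeded HC11-FL by 0.61 (SE 0.15, 1.53-fold), with an adjusted p of 0.0264 that missed the threshold. Both calls in HC11-ΔSAP cells were kept in every alternative fit and with each array left out, although the 2-fold minimum against HC11-FL was missed without HC11-ΔSAP replicate 2.

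Mybl2 and Foxm1, the partners that turn MuvB into an activator, were lower in HC11-ΔSAP cells. Mybl2 lies on chromosome 2 (163054327 to 163084688) and encodes B-Myb, itself silenced by DREAM in resting cells. It read 6.04, 5.76 and 5.59 in HC11-ΔSAP, 7.25, 7.11 and 7.02 in HC11-mutB1 and 6.96, 6.63 and 6.75 in HC11-FL cells. The strains did not overlap, and the gap below HC11-FL was wider than the gap above it. The log2 fold change was -0.99 in HC11-ΔSAP against HC11-FL (SE 0.13, 1.98-fold, adjusted p = 0.000937), just under the fold minimum. It was -1.34 in HC11-ΔSAP against HC11-mutB1 (SE 0.13, 2.52-fold, adjusted p = 0.000239). HC11-mutB1 differed from HC11-FL by 0.35 (95% interval 0.05 to 0.65, adjusted p = 0.117).

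Foxm1, on chromosome 6 (128362994 to 128375886), encodes a forkhead factor that activates mitotic genes and gave the smallest adjusted p-values of the set in both comparisons of HC11-ΔSAP cells. It read 5.65, 5.55 and 5.51 in HC11-ΔSAP, 6.75, 6.91 and 6.72 in HC11-mutB1 and 6.37, 6.38 and 6.38 in HC11-FL cells. The strains did not overlap, and the HC11-FL arrays were almost identical (SD 0.0026), while the SE of the limma fit comes from a spread shared by all strains. The log2 fold change was -0.81 in HC11-ΔSAP against HC11-FL (SE 0.06, 1.75-fold, adjusted p = 5.82e-05). It was -1.22 in HC11-ΔSAP against HC11-mutB1 (SE 0.06, 2.34-fold, adjusted p = 7.57e-06). It was 0.42 in HC11-mutB1 against HC11-FL (SE 0.06, 1.33-fold, adjusted p = 0.00225), a call that was lost only without HC11-FL replicate 3 (adjusted p = 0.0106). The calls of Mybl2 and Foxm1 in HC11-ΔSAP cells were kept in every alternative fit and with each array left out. For each call of the 10 regulators, a two-sided exact test by permutation of the 6 arrays gave p = 0.1, the smallest that such a test can reach.

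Set side by side, activators and repressors did not divide by class. The median log2 fold change in HC11-ΔSAP against HC11-FL was 0.09 for the 3 activators and 0.00 for the 5 repressors, beside 0.00 for all 13157 genes. Within the repressors it was 0.13 for E2f4 to E2f6 and -0.86 for E2f7 and E2f8. In HC11-mutB1 against HC11-FL cells the medians were 0.24 for the activators and 0.31 for the repressors, beside -0.01 for all genes. In HC11-ΔSAP against HC11-mutB1 cells they were -0.14 and -0.31, beside 0.02. The atypical pair thus lay with Mybl2 and Foxm1 in the HC11-ΔSAP comparisons, as the plot of fold changes shows. No test of 1 class against another was made, as each holds 5 or fewer genes chosen by name.

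**Figure D2:**
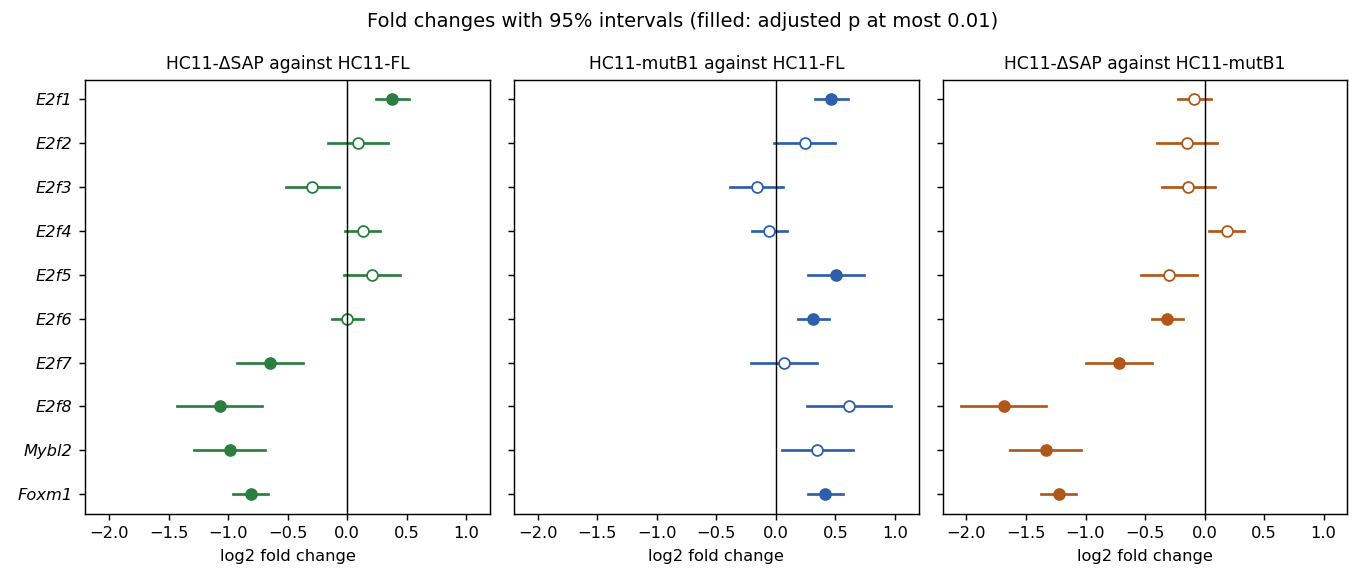
Log2 fold change of each regulator with its 95% interval in HC11-ΔSAP against HC11-FL, HC11-mutB1 against HC11-FL and HC11-ΔSAP against HC11-mutB1 cells; filled points have an adjusted p of at most 0.01. E2f7, E2f8, Mybl2 and Foxm1 are filled left of 0 in both HC11-ΔSAP panels, whereas E2f1 is filled right of 0 in the panels against HC11-FL.

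Promoter sequences were taken from a RefSeq table (GRCm38.p6, 250 bases before to 50 after each start), which matched 7 of the 10 regulators and not E2f4, E2f5 and Foxm1. Both strands were searched for E2F sites (TTTCCCGC, TTTGGCGC, TTTGCCGC or TTTCGCGC), CHR elements (TTTGAA or TTCGAA), which the MuvB subunit LIN54 contacts, CCAAT boxes (CCAAT) and forkhead sites (TGTTTAC or TGTTTGC). An E2F site and a forkhead site can share the letters TTTGC. Of all 32851 windows in the table, 2.26% held an E2F site, 19.2% a CHR element, 37.4% a CCAAT box and 8.48% a forkhead site. The windows of the regulators that changed in HC11-ΔSAP against HC11-FL cells are printed below 5′ to 3′ in the direction of transcription, with matches to an E2F site or CHR element on either strand in capitals, because these are the genes the comparison turns on.
E2f1: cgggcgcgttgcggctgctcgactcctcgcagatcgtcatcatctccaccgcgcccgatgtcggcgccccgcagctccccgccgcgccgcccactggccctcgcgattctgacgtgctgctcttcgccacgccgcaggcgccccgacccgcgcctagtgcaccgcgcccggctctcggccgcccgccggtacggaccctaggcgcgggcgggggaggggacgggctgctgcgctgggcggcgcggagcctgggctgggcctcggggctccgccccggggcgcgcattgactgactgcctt
E2f7: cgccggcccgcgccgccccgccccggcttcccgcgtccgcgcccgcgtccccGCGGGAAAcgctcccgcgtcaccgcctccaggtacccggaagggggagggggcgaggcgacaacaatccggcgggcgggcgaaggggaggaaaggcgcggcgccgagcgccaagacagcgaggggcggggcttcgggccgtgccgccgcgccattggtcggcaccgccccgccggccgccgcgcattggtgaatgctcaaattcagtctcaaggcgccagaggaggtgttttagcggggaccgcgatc
E2f8: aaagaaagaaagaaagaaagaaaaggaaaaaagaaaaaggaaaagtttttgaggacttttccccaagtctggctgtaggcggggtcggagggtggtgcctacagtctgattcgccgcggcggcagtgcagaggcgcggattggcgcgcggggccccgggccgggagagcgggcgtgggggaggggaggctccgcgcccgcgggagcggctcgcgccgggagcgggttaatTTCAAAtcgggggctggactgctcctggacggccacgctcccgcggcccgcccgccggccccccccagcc
Mybl2: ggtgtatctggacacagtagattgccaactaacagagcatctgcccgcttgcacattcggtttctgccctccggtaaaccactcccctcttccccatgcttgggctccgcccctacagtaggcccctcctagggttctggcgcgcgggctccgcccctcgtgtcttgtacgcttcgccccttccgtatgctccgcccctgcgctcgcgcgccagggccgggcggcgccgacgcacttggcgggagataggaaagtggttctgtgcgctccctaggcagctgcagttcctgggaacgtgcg

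These windows lie at chr2:154569377-154569676 (E2f1, minus strand), chr10:110745189-110745488 (E2f7, plus strand), chr7:48881547-48881846 (E2f8, minus strand) and chr2:163054385-163054684 (Mybl2, plus strand). For E2f1, E2f8 and Mybl2 the whole window lies within the annotated span of the gene. Their windows therefore do not cover the bases before that span, and a missing match there does not describe those bases. The E2f7 window held an E2F site on the opposite strand that begins 198 bases before the start and CCAAT boxes 46 and 14 bases before it. The E2f8 window held a CHR element on the opposite strand that begins 20 bases before the start and a CCAAT box 112 bases before it. None of the searched letters occurred in the windows of E2f1 and Mybl2, nor in that of E2f6. Only exact matches were counted, so a window without a match can still hold a variant of a site. The windows of Mybl2 and E2f6 hold gcgggaga, which differs by a letter from GCGGGAAA, the opposite strand of TTTCCCGC. Windows of the activators that were not called did hold matches. The first of 2 E2f2 windows had an E2F site 40 bases after the start, and the first of 2 E2f3 windows an E2F site 11 bases and a CHR element 23 bases before it. A match describes letters only, and binding was not measured here.

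Transcripts of the proteins that canonical E2Fs bind moved in both directions. Of the 5 DP and pocket protein genes, Tfdp1 and Rbl1 fell and Rb1 and Rbl2 rose in HC11-ΔSAP relative to HC11-FL cells. Of all genes 12.0% were lower and 16.0% higher in this comparison. Tfdp1, the main DP partner, read 9.49, 9.40 and 9.37 in HC11-ΔSAP, 9.63, 9.72 and 9.63 in HC11-mutB1 and 10.06, 9.94 and 10.04 in HC11-FL cells. Both mutants lay below HC11-FL without overlap. The log2 fold change was -0.60 in HC11-ΔSAP (SE 0.05, limma adjusted p = 0.000139) and -0.35 in HC11-mutB1 (SE 0.05, adjusted p = 0.00256). The HC11-mutB1 call was lost without replicate 1 or 3 of HC11-FL or of HC11-mutB1 (adjusted p up to 0.0130). Tfdp2, the second DP gene, differed from HC11-FL by -0.17 in HC11-ΔSAP cells (adjusted p = 0.267) and by 0.17 in HC11-mutB1 cells (adjusted p = 0.237).

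Rb1, the gene of the pocket protein that restrains the activators, read 7.64, 7.77 and 7.88 in HC11-ΔSAP, 7.28, 7.39 and 7.39 in HC11-mutB1 and 7.0, 7.13 and 7.12 in HC11-FL cells. The strains did not overlap, with HC11-ΔSAP highest. HC11-ΔSAP exceeded HC11-FL by 0.68 (SE 0.07, adjusted p = 0.000287). Rbl2, the gene of p130, the pocket protein of DREAM in resting cells, also rose in HC11-ΔSAP relative to HC11-FL cells, by 0.41 (SE 0.06, adjusted p = 0.00175), a call that was lost with only these strains in the fit (adjusted p = 0.0114). Rbl1 encodes p107, which rises when cells cycle and is an E2F target. It read 6.57, 6.69 and 6.75 in HC11-ΔSAP, 7.76, 7.97 and 7.88 in HC11-mutB1 and 7.04, 7.11 and 7.12 in HC11-FL cells. The strains did not overlap and stood in the order of E2f8, Mybl2 and Foxm1. Relative to HC11-FL cells, the log2 fold change of Rbl1 was -0.42 in HC11-ΔSAP (adjusted p = 0.00321) and 0.78 in HC11-mutB1 (adjusted p = 0.000122). The HC11-ΔSAP call was lost without HC11-FL replicate 2 or 3 or HC11-ΔSAP replicate 1 or 2 (adjusted p up to 0.0155).

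Of the 5 MuvB core genes 1, Lin9, which encodes a scaffold subunit, was called lower in HC11-ΔSAP against HC11-FL cells, where 12.0% of all genes were. Lin52 passed the test under some alternative settings. Lin9 read 5.18, 5.07 and 5.16 in HC11-ΔSAP, 6.18, 6.28 and 6.30 in HC11-mutB1 and 6.14, 6.34 and 6.26 in HC11-FL cells. HC11-ΔSAP lay apart from the others, which overlapped. The log2 fold change was -1.11 against HC11-FL (SE 0.06, 2.16-fold, adjusted p = 1.31e-05) and -1.12 against HC11-mutB1 (SE 0.06, 2.17-fold, adjusted p = 1.37e-05). Lin54, the DNA-binding subunit, rose by 0.55 in HC11-mutB1 relative to HC11-FL (SE 0.06, adjusted p = 0.000274), and HC11-ΔSAP lay below HC11-mutB1 (log2 fold change -0.68, adjusted p = 0.000106).

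Lin52, the subunit whose phosphorylation lets p130 join in human cells, differed by -0.45 between HC11-ΔSAP and HC11-FL cells, with an adjusted p of 0.0121 that missed the threshold. It passed with the replicate block (adjusted p = 0.00838), after centring (0.00902) and with p adjusted over expressed probesets only (0.00726). HC11-ΔSAP lay below HC11-mutB1 (log2 fold change -0.56, adjusted p = 0.00541), a call lost in 7 of the 9 fits with 1 array left out, all but those without HC11-ΔSAP replicate 1 or 2 (adjusted p up to 0.0250). Lin37 and Rbbp4 changed in no comparison. The plot of partner genes by array shows the spread of these values.

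**Figure D3:**
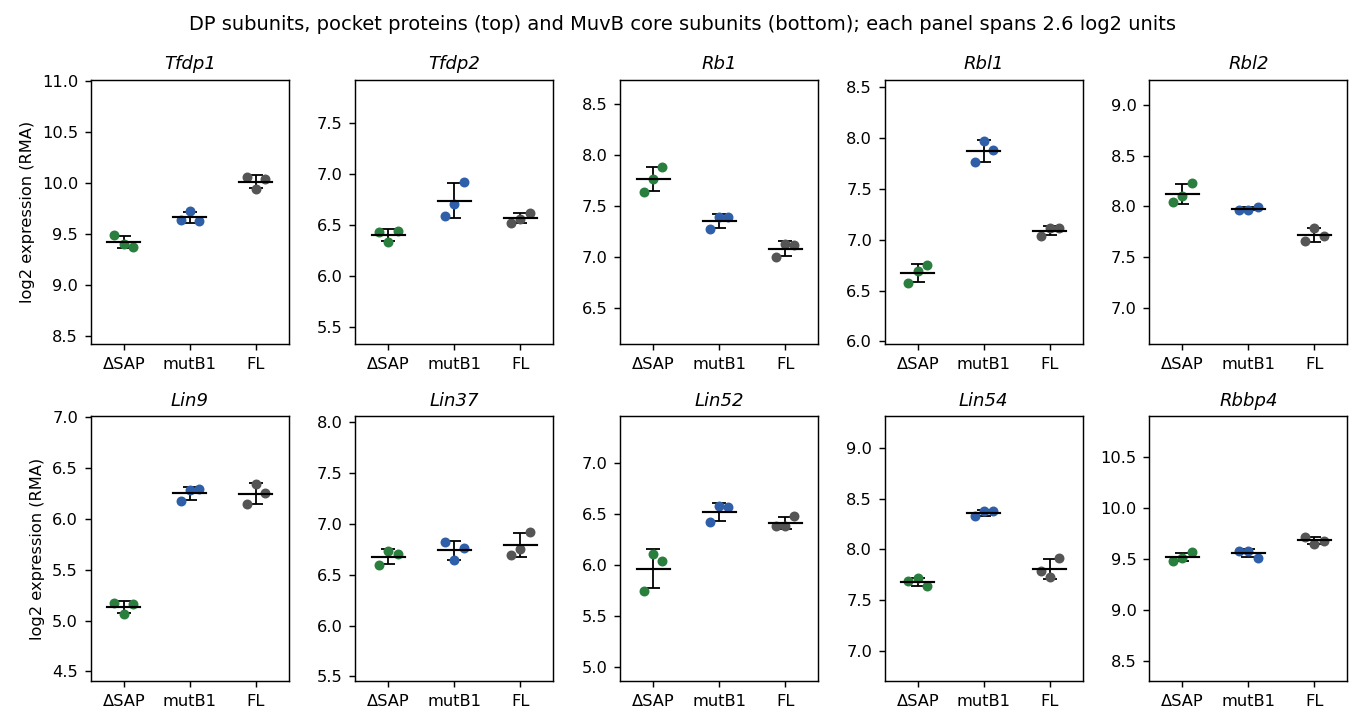
Log2 expression (RMA) of the DP and pocket protein genes (top row) and the MuvB core genes (bottom row) on each array of HC11-ΔSAP (green), HC11-mutB1 (blue) and HC11-FL (grey) cells, with the mean and SD of 3 arrays. Rb1 and Rbl2 are highest and Rbl1, Tfdp1 and Lin9 lowest in HC11-ΔSAP cells.

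Most of the listed target genes of these factors were lower in HC11-ΔSAP cells. The lists were written from known targets with earlier results of these data known. Their counts are therefore a description and not an independent test. Of 32 listed E2F targets of G1 and S phase, 29 were analysed here. In HC11-ΔSAP against HC11-FL cells 25 of them were lower and 0 were higher, where 12.0% and 16.0% of all genes were. The median log2 fold change was -0.88 beside 0.00 for all genes. Of the 25, 12 passed all 3 filters, as did 2.07% of all genes downwards. The 4 that did not pass the test were Cdc25a, Gins1, Pcna and Tyms. Among the 25, Ccne2 and Orc1 averaged 3.53 and 3.87 in HC11-ΔSAP cells, under the expression minimum of 4. Ccne2 is also among the 12. Both genes reached the minimum over the 9 arrays only through the other strains, so background limits their measured folds in both HC11-ΔSAP comparisons. Mcm6, a subunit of the replicative helicase, averaged 6.19 ± 0.12 in HC11-ΔSAP and 8.34 ± 0.06 in HC11-FL cells (SD, n = 3), a log2 fold change of -2.14 (SE 0.07, 4.42-fold, limma adjusted p = 6.16e-07). Rrm2, the small subunit of ribonucleotide reductase, had a log2 fold change of -1.63 (3.10-fold, adjusted p = 2.18e-05) and Mcm3, another helicase subunit, of -1.50 (2.83-fold, adjusted p = 1.1e-06). In HC11-mutB1 against HC11-FL cells 8 of the 29 were higher and 1 lower (Ung, a DNA repair glycosylase), where 15.7% and 10.6% of all genes were, with a median of 0.21. The 8 were 5 without HC11-mutB1 replicate 2, and the 1 was 2 without HC11-ΔSAP replicate 3. In HC11-ΔSAP against HC11-mutB1 cells 24 were lower and 0 higher, where 10.6% and 9.86% of all genes were, with a median of -1.01.

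Of 30 listed targets of B-Myb, FoxM1 and MuvB in G2 and mitosis, 29 were analysed here. In HC11-ΔSAP against HC11-FL cells 28 were lower and 1 was higher, where 12.0% and 16.0% of all genes were, with a median of -1.24. Of the 28, 22 passed all 3 filters, as did 2.07% of all genes downwards. Aurka, Tpx2 and Ube2c, and Tk1 of the G1 and S phase list, each gave the same value on all HC11-FL arrays (SD 0). Such repeats narrow the spread behind their calls, and the cause was not tested. Cenpe, which encodes a kinetochore motor, averaged 4.71 ± 0.05 in HC11-ΔSAP and 6.60 ± 0.06 in HC11-FL cells (SD, n = 3), a log2 fold change of -1.89 (SE 0.07, 3.72-fold, limma adjusted p = 1.34e-06). Nek2, a centrosomal kinase, had a log2 fold change of -1.84 (3.58-fold, adjusted p = 1.27e-06) and Prc1, a protein of the spindle midzone, of -1.73 (3.31-fold, adjusted p = 5.14e-06). The 1 that was higher, by 0.33, was Cdc25b, a phosphatase that activates CDK1, and its call was lost without any 1 HC11-FL array or HC11-ΔSAP replicate 2 or 3, with only these strains in the fit and with the replicate block.

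In HC11-mutB1 against HC11-FL cells 18 of the 29 were higher and 0 lower, where 15.7% and 10.6% of all genes were, and the median was 0.52. Cdc25b and the checkpoint kinase gene Bub1 passed all 3 filters there, as did 2.21% of all genes upwards. The 18 were 10 without HC11-FL replicate 1, HC11-mutB1 replicate 2 or HC11-mutB1 replicate 3, and 11 without HC11-FL replicate 3. In HC11-ΔSAP against HC11-mutB1 cells all 29 were lower, where 10.6% of all genes were, with a median of -1.77. Of these, 27 passed all 3 filters, as did 2.28% of all genes downwards. The plot of target genes shows each gene of both lists.

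**Figure D4:**
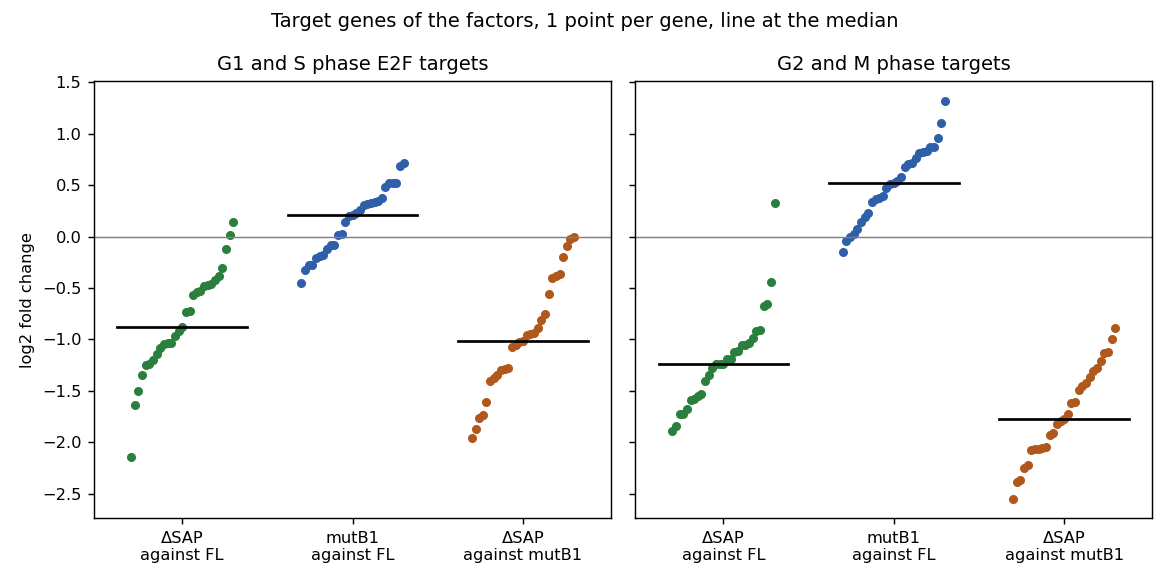
Log2 fold change of each measured gene (1 point per gene, in order of its value, line at the median) among 29 E2F targets of G1 and S phase (left) and 29 targets of B-Myb, FoxM1 and MuvB in G2 and M phase (right), in the 3 comparisons. Medians lie at -0.88, 0.21 and -1.01 on the left and at -1.24, 0.52 and -1.77 on the right.

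The promoter windows of the lists differed in the letters they held. An E2F site occurred in 12 of 26 genes of the G1 and S phase list with a window (46.2%) and in 1 of 25 of the G2 and M phase list (4%), beside 2.6% of all 27025 genes. A CHR element occurred in 4 of 26 (15.4%) and 16 of 25 (64%), beside 21.7%. Among the regulators with a window, 3 of 7 held an E2F site and 3 of 7 a CHR element. The lists were written from known targets, so these shares describe the lists and not the arrays.

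E2F6 works in the Polycomb complex PRC1.6, and 2 of 10 genes of its other subunits fell and 0 rose in HC11-ΔSAP relative to HC11-FL cells, counts near the 12.0% of all genes that were lower and below the 16.0% that were higher. Max, which encodes the shared partner of Myc and Mga, had a log2 fold change of -0.59 (SE 0.05, adjusted p = 6.2e-05), and L3mbtl2, a chromatin-binding subunit, of -0.38 (SE 0.05, adjusted p = 0.00082). Max fell in HC11-mutB1 relative to HC11-FL cells as well (log2 fold change -0.33, adjusted p = 0.00155). Of 5 germline genes that E2F6 silences, 1 reached the expression minimum, Tuba3a, with a log2 fold change of -0.25 in HC11-ΔSAP against HC11-FL (adjusted p = 0.211).

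Of 6 other Myb and Myc factors, 3 fell in HC11-ΔSAP relative to HC11-FL cells, where 12.0% of all genes did, and 1 of these calls (Mybl1) was lost in most fits with 1 array left out. Myc, a driver of growth genes, averaged 9.97 ± 0.04 in HC11-ΔSAP, 9.90 ± 0.03 in HC11-mutB1 and 11.20 ± 0.04 in HC11-FL cells (SD, n = 3). It was lower than in HC11-FL in both mutants, with log2 fold changes of -1.23 in HC11-ΔSAP (limma adjusted p = 9.59e-07) and -1.30 in HC11-mutB1 (adjusted p = 7.13e-07). Myb, the gene of c-Myb, was likewise lower in both, by log2 fold changes of -0.92 in HC11-ΔSAP (adjusted p = 0.0016) and -1.04 in HC11-mutB1 (adjusted p = 0.000931). Mybl1, the gene of A-Myb, had its strain means in the same order as Mybl2. Its log2 fold change was -0.43 in HC11-ΔSAP against HC11-FL (adjusted p = 0.00986) and -1.28 in HC11-ΔSAP against HC11-mutB1 (adjusted p = 3.54e-05). It was 0.86 in HC11-mutB1 against HC11-FL (adjusted p = 0.000276). The first of these Mybl1 calls was lost without any array other than HC11-ΔSAP replicate 3 (adjusted p up to 0.0416).

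Among 13156 other genes, those whose levels ran most like a regulator over the 9 arrays were named for the 5 regulators whose strain means spanned at least 0.5 on the log2 scale. For Foxm1 they were Tmem18 (Pearson r = 0.996), Ccna2 (0.996) and Tpx2 (0.995), and for E2f8 H2ac4 (0.990), Brca2 (0.989) and Mki67 (0.986). For Mybl2 they were Dnmt1 (0.991), Fads2 (0.987) and Rrm2 (0.985). For E2f7 they were Zfp207 (0.977), Sike1 (0.971) and Eif2b2 (0.967), and for E2f5 Zfp949, Clec12a and Ube2d2a (0.974 to 0.973). Ccna2, Tpx2, Dnmt1 and Rrm2 belong to the target lists. The arrays fall into 3 strains, so these values mainly describe the order of the strains.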

How the data were processed

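Total RNA of 9 samples of the 3 HC11 strains was hybridized to Affymetrix Mouse Gene 1.0 ST arrays. The authors deposited RMA-normalized log2 values of 34760 probesets; the submitters' processing notes name the affy package and R 2.10.0. Of the probesets, 21640 have 1 gene symbol in the array annotation, 1321 several and 11799 none listed, and 45.2% repeat a value between arrays. Scans were not used. A mean per strain was fitted with limma 3.58.1 in R 4.3.3 over all 9 arrays (6 residual and 1.93 prior degrees of freedom), with p-values adjusted over all probesets. The script was tested on simulated data.

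Named are all 10 regulators, every DP, pocket protein and MuvB gene, from each other list the 3 changed genes with the largest change in HC11-ΔSAP against HC11-FL, and 3 genes per regulator by likeness. Cdc25a, Gins1, Pcna, Tyms, Ccne2, Orc1, Ung, Tk1, Cdc25b, Bub1, Aurka, Ube2c, Krt5, Epcam, Cdh1, Dcn, Pdgfra, Cd68 and Cd3e were named after their values were seen. Tuba3a was named as the only measured gene of its list. Some listed genes are not reported here. Members and lists were chosen with earlier results of these data known. Alternatives were other fits, scalings, filters, thresholds, a replicate block and each array left out.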

Additional observations from a re-analysis of the deposited data

How the results depend on the processing

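With only the 2 strains compared in the fit, 2 regulators were higher in HC11-mutB1 against HC11-FL in place of 4, and 3 lower in HC11-ΔSAP against HC11-mutB1 in place of 5. In HC11-ΔSAP against HC11-FL the lower call of E2f7 was also lost in that fit (adjusted p = 0.0197). It was lost as well in 7 of the 9 fits with 1 array left out. Centring each array on its median, or quantile normalization of the deposited values again, also left 2 higher in HC11-mutB1 against HC11-FL. With array weights 2 regulators passed the 2-fold minimum in HC11-ΔSAP against HC11-FL in place of 1, and 4 passed a minimum of 1.5-fold. With each array left out in turn, the number higher was 1 to 3 in HC11-mutB1 against HC11-FL and 0 to 1 in HC11-ΔSAP against HC11-FL, the number lower was 3 to 4 in HC11-ΔSAP against HC11-mutB1, and the number past the 2-fold minimum was 0 to 2 in HC11-ΔSAP against HC11-FL. Fewer arrays or strains leave fewer degrees of freedom. The cause of the other changes was not tested.

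The signs that turned were all of differences near 0 that were not called. E2f6 in HC11-ΔSAP against HC11-FL gave -0.0046 after centring, -0.0056 after quantile normalization and -0.026 to 0.031 with 1 array left out, and with it the median of the repressors. Lin9 in HC11-mutB1 against HC11-FL gave -0.040, -0.032 and, with array weights, -0.0024, and -0.049 to 0.052 with 1 array left out. Rbbp4 in HC11-ΔSAP against HC11-mutB1 gave 0.0011 after centring. With 1 array left out, HC11-mutB1 against HC11-FL gave -0.10 to 0.013 for E2f4, -0.0054 to 0.11 for E2f7 and -0.095 to 0.017 for Lin37. For the lists, the 1 G1 and S phase target lower in HC11-mutB1 against HC11-FL was 2 after centring, with array weights and with p adjusted over expressed probesets, and 5 at a threshold of 0.05.

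With the replicate number as a block, 0 regulators were higher in HC11-ΔSAP against HC11-FL, as E2f1 had an adjusted p of 0.0122. E2f7 there (0.0101) and E2f6 between the mutants (0.0111) also missed the threshold. The samples share only a number: deviations from the strain means of same-numbered arrays correlated at -0.11 to 0.26, and 2 to 3 of the 6 arrays in a comparison correlated best with their own number. Over all genes the block gave 2857 in place of 3461 calls in HC11-mutB1 against HC11-FL, 3091 in place of 3688 in HC11-ΔSAP against HC11-FL and 2144 in place of 2697 in HC11-ΔSAP against HC11-mutB1. E2f8 lay near the expression minimum in HC11-ΔSAP cells, where background limits the measured fold.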
